A study of Mus musculus with 5 samples.

Results

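Cystatins and the lysosomal cathepsins they hold in check were followed in lung ILC2s, the group 2 subset of innate lymphoid cells, which live in the tissue and make type 2 cytokines. The set comprised 10 genes, 3 cystatins (Cstb, Cst3 and Cst7) and 7 cathepsins (Ctsb, Ctsd, Ctsh, Ctsl, Ctss, Ctsw and Ctsz), of 22180 genes measured. Each gene was read from the probe set that the platform annotation pairs with that symbol alone. Where a gene had several probe sets, which applied to 1 of the 10, the one with the highest mean over all 5 arrays was taken. The set was chosen by measured values of these same arrays, namely the wide difference of Cstb between the genotypes, and the probe set by its mean signal. The genotype differences below are therefore a description and support nothing by themselves.

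The 5 arrays held 2 biological replicates of ILC2s from IL-33 knockout (IL-33KO) mice and 3 from wild-type (WT) mice, all labelled as naive males with cells taken from the lung. IL-33 is an alarmin, a cytokine released by damaged tissue, to which ILC2s respond. The labels do not state the knockout allele, the strain, the age, the sort gate or any pooling of animals. Values are deposited log2 signals, so that a difference of 1 is a 2-fold difference in signal.

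Cystatins are reversible inhibitors of papain-like cysteine proteases. Cathepsins are proteases that mostly work in the acidic endosomes and lysosomes, where they digest taken-up and worn-out proteins, trim antigens and their chaperones, and activate other proteases. In lymphocytes some members of both families sit in or act on secretory granules.

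Before any comparison, 2 features of the knockout arrays bear on what follows. IL-33KO replicate 2 gave a signal of 7.91 for Xist, a transcript of the inactive X chromosome of female cells, against 3.10 in IL-33KO replicate 1 and 2.35 to 3.10 in WT, which goes against its label of male. Among Y-linked genes it read lowest of the 5 arrays for Eif2s3y (6.14) and Kdm5d (4.79) and highest for Uty (7.17). IL-33KO replicate 1 gave 8.52 for Bpifa1 and 8.81 for Scgb1a1, both airway secretory transcripts, against at most 3.22 and 5.01 in WT. Epithelial and endothelial list means were higher in both knockout arrays than in WT, as given below. Where a result turns on a gene, its values are therefore given for both knockout arrays. Il33 itself read 3.79 and 3.95 in IL-33KO and 3.37, 3.39 and 3.32 in WT, near the floor in both, and the deleted part of the gene is not given, so it checks no label. ILC2 markers had a list mean of 8.39 and 8.50 in IL-33KO and 8.49 to 8.64 in WT. All 12 measured markers were above 3.56, the limit under which the dimmest 25% of genes remained untested. The mean hides shifts in both directions. Differences, IL-33KO minus WT, ran from -0.84 to 1.27, with 3 above 0 and 9 below. The groups did not overlap for 3 higher and 2 lower markers, where the shares over all genes tested were 11.6% and 6.32%.

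Cstb encodes cystatin B, a small inhibitor found mainly in the cytosol and nucleus that blocks cathepsins B, H, L and S. Its signal was 8.62 and 8.62 in the IL-33KO arrays and 7.27, 7.00 and 7.22 in the WT arrays. Both knockout arrays lay above all WT arrays, and the knockout arrays differed from each other by only 0.0057. The difference, IL-33KO minus WT, was 1.46 (SE 0.10), or 2.75-fold, between means of 8.62 ± 0.0040 (SD, n = 2) and 7.16 ± 0.14 (SD, n = 3). It was 1.46 for either knockout array taken alone. Across the 16635 genes tested, limma's adjusted p for Cstb was 0.327, the lowest value of all and one shared by 9 genes, and it did not pass the threshold of 0.05. In bulk samples such as these, more or fewer cells of a type and more or less RNA per cell cannot be told apart.

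Cst3 encodes cystatin C, the widely secreted inhibitor of cysteine cathepsins. It read 9.75 and 10.24 in IL-33KO and 10.08, 9.90 and 9.81 in WT. The knockout arrays fell on opposite sides of the WT range, and the difference of 0.07 had an interval of -0.46 to 0.59 (limma, 95%). A second, dimmer probe set of Cst3, which the choice by highest mean set aside, read 5.27 and 5.68 in IL-33KO and 4.79, 4.13 and 4.60 in WT. There both knockout arrays lay above all WT arrays, so the 2 probe sets of this gene did not show the same pattern.

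Cst7 encodes cystatin F, an inhibitor of haematopoietic cells that enters endosomes and granules, where cathepsin C is a known target. Its signal was 5.92 and 5.09 in IL-33KO and 5.97, 5.78 and 5.92 in WT. Only IL-33KO replicate 2 lay outside the WT range, 0.80 below the WT mean, while replicate 1 held exactly the value of WT replicate 3. The difference over both was -0.39, with an interval of -1.18 to 0.41.

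**Figure D1:**
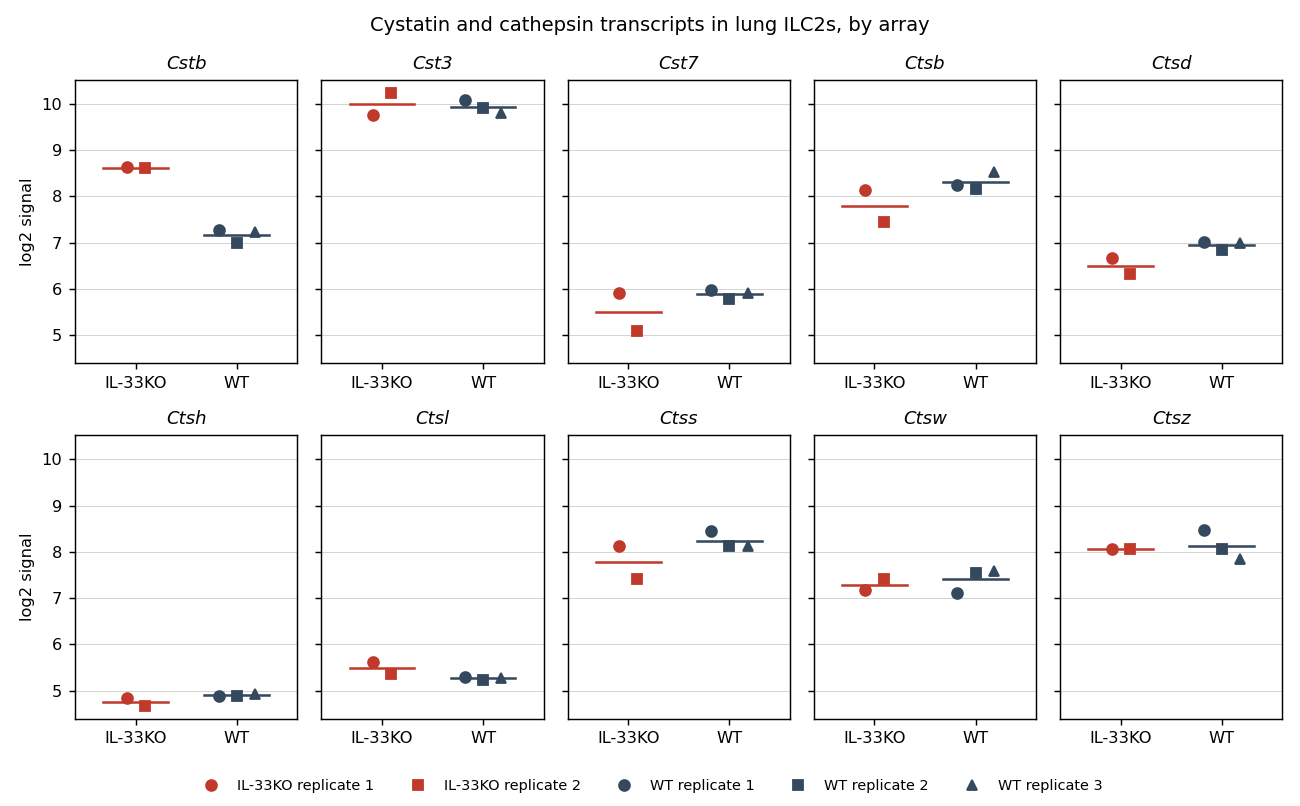
Log2 signal of each of the 10 genes (vertical axis, a log2 scale that does not start at 0) on the 2 IL-33KO arrays (red) and the 3 WT arrays (blue), 1 point per array, with a line at each group's mean. Cstb stands at 8.62 on both knockout arrays, above all WT arrays, whereas for Cst7, Ctsb and Ctss the lower knockout point is replicate 2.

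Among the cathepsins, 6 of 7 had a difference below 0, with Ctsl as the exception, and their mean signal was 6.95 and 6.67 in IL-33KO against 7.07, 6.98 and 7.04 in WT. Both knockout arrays were below every WT array in this mean, replicate 1 only just. Over all genes tested 57.1% had a difference above and 39.9% below 0, and the median difference was 0.04.

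The endopeptidases of the cysteine class, Ctsb, Ctss and Ctsl, did not share a direction of difference, and contrasts between these genes were not tested. Ctsb, which encodes cathepsin B, an abundant lysosomal protease that also trims peptides from the C terminus, read 8.14 and 7.44 in IL-33KO and 8.25, 8.15 and 8.52 in WT. The groups did not overlap, but replicate 1 lay just under the lowest WT array, and most of the difference of -0.52 (SE 0.27) came from replicate 2. Taken alone, replicate 1 was 0.17 and replicate 2 was 0.87 below the WT mean.

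Ctss encodes cathepsin S, known for degrading the invariant chain in antigen-presenting cells. It had 8.13 and 7.42 in IL-33KO and 8.45, 8.13 and 8.14 in WT. Replicate 1 held the same value as WT replicate 2, so the groups overlapped, and the difference of -0.46 had an interval of -1.20 to 0.28. As for Ctsb, the array that lay apart was replicate 2.

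Ctsl encodes cathepsin L, which takes the invariant chain role in thymic epithelium and turns over proteins in many cells. Its signal was 5.63 and 5.36 in IL-33KO and 5.30, 5.23 and 5.29 in WT. Both knockout arrays were higher than all WT arrays, by 0.36 and 0.09 over the WT mean, and the difference was 0.22 (SE 0.10). Ctsl was the only cathepsin of the 7 higher in both knockout arrays, and here replicate 1 lay farther out.

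Of the enzymes that work as exopeptidases, Ctsh, encoding the aminopeptidase cathepsin H, read 4.85 and 4.67 in IL-33KO and 4.88, 4.88 and 4.93 in WT. Both knockout arrays were below all WT arrays, with a difference of only -0.14 (SE 0.071). Ctsh was also the single gene of the 10 whose mean signal lay below that of the median gene tested, 5.02.

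Ctsz encodes the carboxypeptidase cathepsin Z (also called X). Its signal was 8.06 and 8.06 in IL-33KO and 8.47, 8.06 and 7.84 in WT. Both knockout arrays and WT replicate 2 held exactly the same value, inside the WT range, and the difference was -0.06 with an interval of -0.66 to 0.53. Ctsz and Ctsb had about the same mean signal, yet signals of different probe sets are not on a common scale, and the 10 genes are not ordered by level here.

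Ctsw encodes cathepsin W, whose expression is largely limited to cytotoxic lymphocytes and related cells. It read 7.17 and 7.41 in IL-33KO and 7.11, 7.55 and 7.58 in WT, inside the WT range on both knockout arrays. The interval of its difference of -0.12 ran from -0.67 to 0.42. Markers of NK and cytotoxic T cells had a list mean of 4.26 and 4.70 in IL-33KO and 4.14 to 4.30 in WT, and of the 8 measured, Eomes and Klrb1c were below the limit for dim genes. All 6 tested had a difference above 0. Gzma read 3.84 and 6.56 in IL-33KO and 3.27 to 4.01 in WT, and Nkg7 6.65 and 7.56 in IL-33KO and 7.00 on each WT array, so that replicate 2 was the highest array for both. Their part in the Ctsw signal was not tested.

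Ctsd encodes cathepsin D, the main aspartic protease of lysosomes, which cystatins do not inhibit. It had 6.66 and 6.31 in IL-33KO and 7.01, 6.83 and 7.00 in WT. Both knockout arrays lay below all WT arrays, replicate 1 by 0.29 and replicate 2 by 0.64 under the WT mean. The difference was -0.46 (SE 0.14), or a WT signal 1.38-fold that of IL-33KO, between means of 6.49 ± 0.25 (SD, n = 2) and 6.95 ± 0.10 (SD, n = 3). Limma's adjusted p was 0.563.

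**Figure D2:**
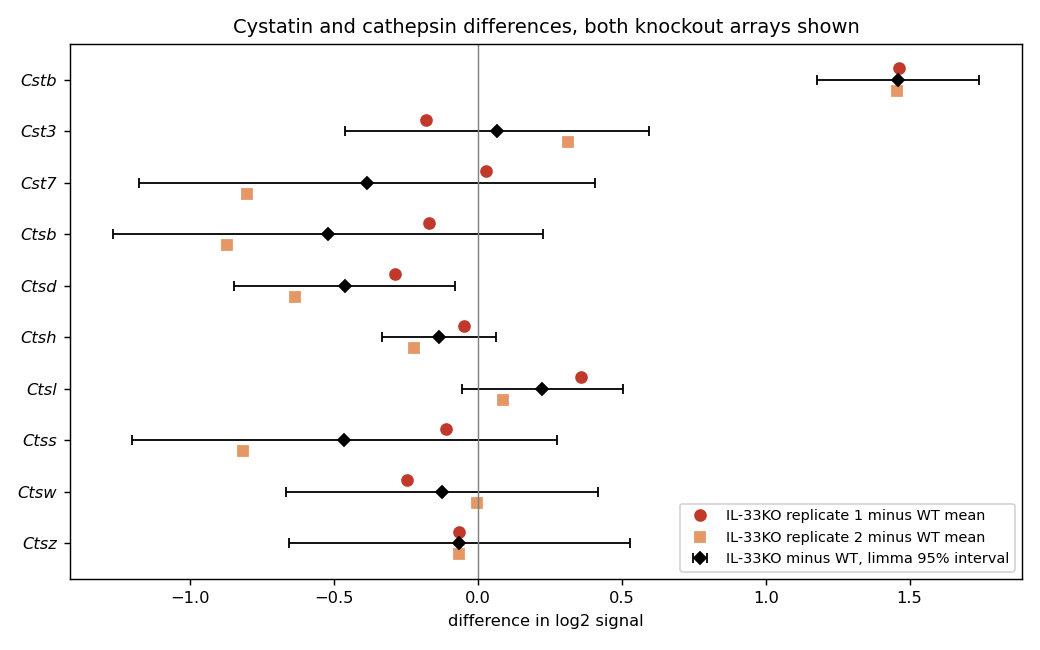
Difference in log2 signal from WT (horizontal axis) for each of the 10 genes. Circles and squares give IL-33KO replicates 1 and 2 minus the WT mean, and diamonds the difference of the group means with limma's 95% interval. Cstb is at 1.46 for both arrays, while for Cst7, Ctsb and Ctss replicate 2 lies 0.80, 0.87 and 0.82 below the WT mean.

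None of the 10 genes passed an adjusted p of 0.05 with limma, as was the case for all 16635 genes tested (0% called), and adjusted p values of the 10 ran from 0.327 to 0.912. At an unadjusted p below 0.05 there were 2 of the 10, Cstb and Ctsd, where the share over all genes was 7.64%. Of all genes, 5.05% had such a p and were higher, like Cstb, and 2.59% were lower, like Ctsd. The groups did not overlap for 5 of the 10, with Cstb and Ctsl higher and Ctsb, Ctsd and Ctsh lower in IL-33KO. Over all genes tested the groups did not overlap for 18%, of which 11.6% were higher and 6.32% lower. Since the genes were chosen with this contrast in view, nothing is read from these shares. The genes had a median difference of -0.13.

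The knockout arrays also differed from each other within the set. Replicate 2 was lower than replicate 1 for 7 genes, higher for Cst3 and Ctsw, and equal for Ctsz. For 7 of the 10 the gap between the knockout arrays was wider than the whole WT range, which held for 45.3% of all genes tested, and over all probe sets the knockout arrays correlated less with each other (r = 0.893) than WT arrays did (0.929 to 0.933). An example is Cst7, with a gap of 0.83 against a WT range of 0.20. Cstb was the opposite case, with a gap of 0.0057 against a WT range of 0.27. Against the WT range, replicate 1 alone was above it for 2 and below it for 4 of the genes, and replicate 2 alone was above it for 3 and below it for 5. Over all genes tested 47.8% lay outside the WT range on replicate 1, 31.1% above and 16.6% below it, and 54% on replicate 2, 30.4% above and 23.6% below it. Replicate 2 is the array with the high Xist signal, and the part of sex in the lower Cst7, Ctsb, Ctsd and Ctss signals was not tested.

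Exactly equal values on different arrays occurred for 4 of the 10 genes, Cst7, Ctsh, Ctss and Ctsz. The other 6, Cstb and Ctsd among them, had 5 distinct values, as did 36.4% of all genes tested. For Ctsz both knockout arrays coincided, which gives an SD of 0 in IL-33KO. For Ctsh the equal values lay within WT, and for Cst7 and Ctss they lay in different groups. With the fit limited to genes with at least 4 distinct values, the SE rose for Cstb and Ctsl from 0.10 to 0.17. That of Ctsd rose from 0.14 to 0.18 and that of Ctsh from 0.071 to 0.16. It rose less for Cst3 and Ctsw, and fell slightly for Cst7, Ctsb and Ctss.

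Cathepsins and cystatins are abundant in macrophages, neutrophils and epithelium, so the markers of those cells are set beside them. The 14 macrophage and monocyte markers had a list mean of 4.21 and 4.32 in IL-33KO and 4.08 to 4.44 in WT, and of these Csf1r, Cd14, Mertk and C1qc were below the limit for dim genes. Of the 10 tested, 6 had a difference above 0 and 4 below. Chil3, just above that limit, and the dim Csf1r and Cd14 lay above all WT arrays on both knockout arrays. Neutrophil markers had 4.18 and 3.82 in IL-33KO and 3.59 to 4.20 in WT, with S100a8, Ly6g and Retnlg below that limit. The upper end of both WT ranges was WT replicate 2, which read 5.58 for Lyz2 and 5.36 for Retnlg. The other 2 WT arrays had means of 4.16 and 4.08 for macrophage and 3.66 and 3.59 for neutrophil markers, below both knockout arrays, and all 5 neutrophil markers tested had a difference above 0. The 10 lung epithelial markers had a mean of 5.83 and 4.64 in IL-33KO and 4.20 to 4.35 in WT, higher in both knockout arrays, and Scgb3a2, below the limit by its mean, read 6.21 on IL-33KO replicate 1 and 2.07 on replicate 2, against 2.10 to 2.20 in WT. Of the 9 epithelial markers tested, 7 were above 0 in difference and 2 below. Epcam read 4.51 and 4.99 in IL-33KO and 3.88 to 4.13 in WT. Endothelial markers had 5.64 and 6.01 in IL-33KO and 5.31 to 5.36 in WT, with 6 of 7 above 0 and 1 below. Cdh5 read 6.26 and 7.14 in IL-33KO and 4.98 to 5.68 in WT. Cldn5 read 5.95 and 6.68 in IL-33KO and 4.48 to 5.13 in WT. Epcam, Cdh5 and Cldn5 were all highest on replicate 2. Dendritic cell markers had 4.59 and 4.63 in IL-33KO and 4.50 to 4.59 in WT, with 4 of 6 above 0 and 2 below. IL-33KO replicate 1, at 4.590, was barely above WT replicate 3, at 4.587. Mast cell and eosinophil markers had 3.92 and 3.99 in IL-33KO and 3.59 to 3.73 in WT, higher in both knockout arrays. Of these 8, 4 were below the limit for dim genes, and of 4 tested 2 were above 0, 1 at 0 and 1 below. T cell markers were lower in both knockout arrays, at 5.46 and 5.44 in IL-33KO and 5.63 to 5.71 in WT. Of 5 T cell markers tested, 2 were above 0 and 3 below. The part of RNA from these other cell types in the difference of Cstb and of the other 9 genes was not tested.

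**Figure D3:**
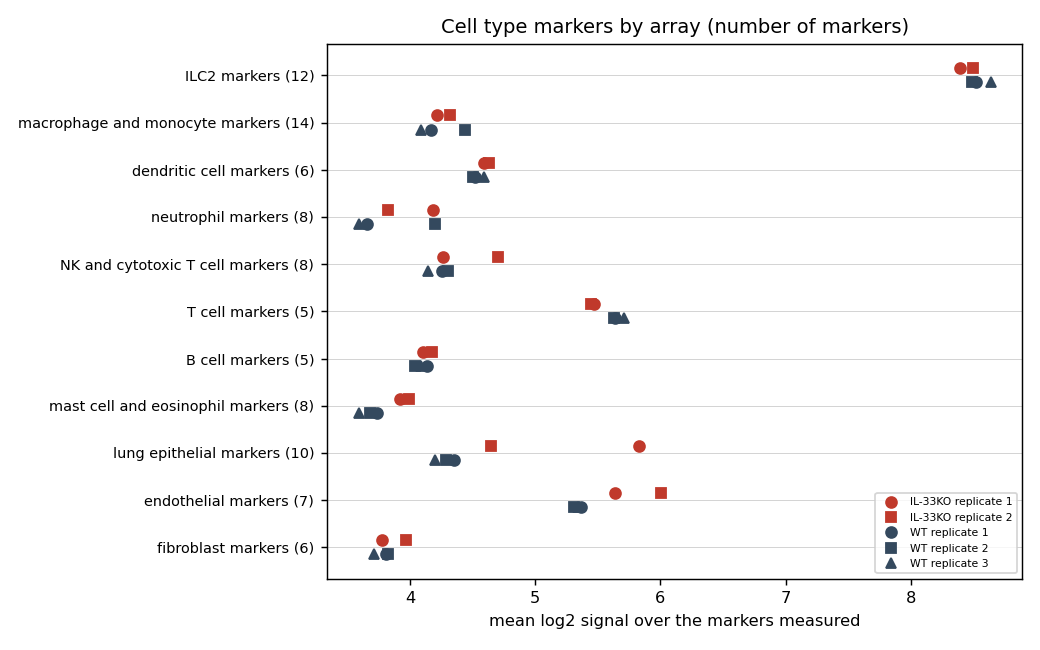
Mean log2 signal over the measured markers of each cell type (horizontal axis), 1 point per array, with IL-33KO in red above WT in blue in each row. Epithelial and endothelial markers are higher in both knockout arrays than in WT, at 5.83 and 4.64 and at 5.64 and 6.01, while for macrophage markers they lie inside a WT range whose upper end, 4.44, is WT replicate 2.

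The remaining cathepsins and legumain, an asparaginyl protease that matures several of them, were read beside the 7 above. Of 7 tested 5 had a difference above 0 and 2 below, where 57.1% of all genes tested were above 0. The median was 0.21 and none passed. The groups did not overlap for 1 gene, Ctse, which was higher, where the share over all genes tested was 11.6%. Ctse, an aspartic protease of endosomes, read 7.64 and 7.16 in IL-33KO and 6.79, 6.56 and 7.05 in WT, higher in both knockout arrays. Lgmn had 6.25 and 5.19 in IL-33KO and 4.47, 5.19 and 5.31 in WT, with only replicate 1 outside the WT range. Ctsc, the dipeptidyl peptidase that activates granzymes, read 7.02 and 6.82 in IL-33KO and 7.05, 7.01 and 7.26 in WT, with overlap of the groups. The 8 placental cathepsins, which serve as a view of the floor for this family, lay at a mean of 3.25 to 3.26 in IL-33KO and 3.10 to 3.35 in WT. Of the 17 other cystatins measured, among them the further stefins, 13 were left out as dim, and the 4 tested had differences of -0.20 to 0.25.

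Lysosomal genes that the set does not contain were taken from lists of hydrolases, membrane proteins, proton pump subunits and regulators. Of 29 soluble hydrolases and cofactors tested, 12 were above and 17 below 0 in difference, with a median of -0.03. Hexa, encoding the alpha subunit of beta-hexosaminidase, stood farthest apart in this list. It had 6.87 and 6.63 in IL-33KO and 7.55, 7.38 and 7.46 in WT. Its difference was -0.72 (SE 0.10, or 0.17 among genes with at least 4 distinct values), with an adjusted p of 0.408 by limma. Smpd1, acid sphingomyelinase, read 5.78 and 5.69 in IL-33KO and 6.06, 6.12 and 6.15 in WT, a difference of -0.37 that was -0.072 when all its probe sets were averaged. Lipa, acid lipase, read 5.46 and 6.13 in IL-33KO and 6.34, 6.13 and 6.61 in WT, with overlap, and its difference was -0.23 without IL-33KO replicate 1 and -0.90 without replicate 2.

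Of 14 lysosomal membrane protein genes, 4 were above 0, 9 below and Lamp1 at exactly 0, with a median of -0.01. Cd63, a tetraspanin of late endosomes and granules, read 6.05 and 7.09 in IL-33KO and 5.73, 4.45 and 5.90 in WT. Its difference of 1.21 was 1.74 without IL-33KO replicate 1, 0.69 without replicate 2 and 0.76 without WT replicate 2. Ostm1, a subunit of a lysosomal chloride transporter, differed by 0.50, or by 0.25 for IL-33KO replicate 1 and 0.76 for replicate 2, and by 0.28 with its probe sets averaged. Tmem106b differed by -0.65 for replicate 1 and -0.71 for replicate 2, and its difference over both, -0.68, was -0.42 without WT replicate 1. Among 15 subunits of the vacuolar ATPase, the pump that acidifies the compartment in which cathepsins work, 5 were above 0 and 9 below. Atp6v1a was at exactly 0, with 5.34 on all 5 arrays, and the list median was -0.17. The groups did not overlap for 1 higher and 5 lower subunits, where the shares over all genes were 11.6% and 6.32%. Atp6v0a2 was 0.69 and 1.28 below the WT mean on IL-33KO replicates 1 and 2, and Atp6v1e1 0.69 and 1.59 below it. Atp6v1g1 read 7.12 and 7.43 in IL-33KO and 6.96, 6.82 and 6.98 in WT, a difference of 0.36 that was 0.054 with its probe sets averaged. None of these genes passed, and signals on replicate 2 were the lower ones for Atp6v0a2 and Atp6v1e1, as they were for Ctsb and Ctss.

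**Figure D4:**
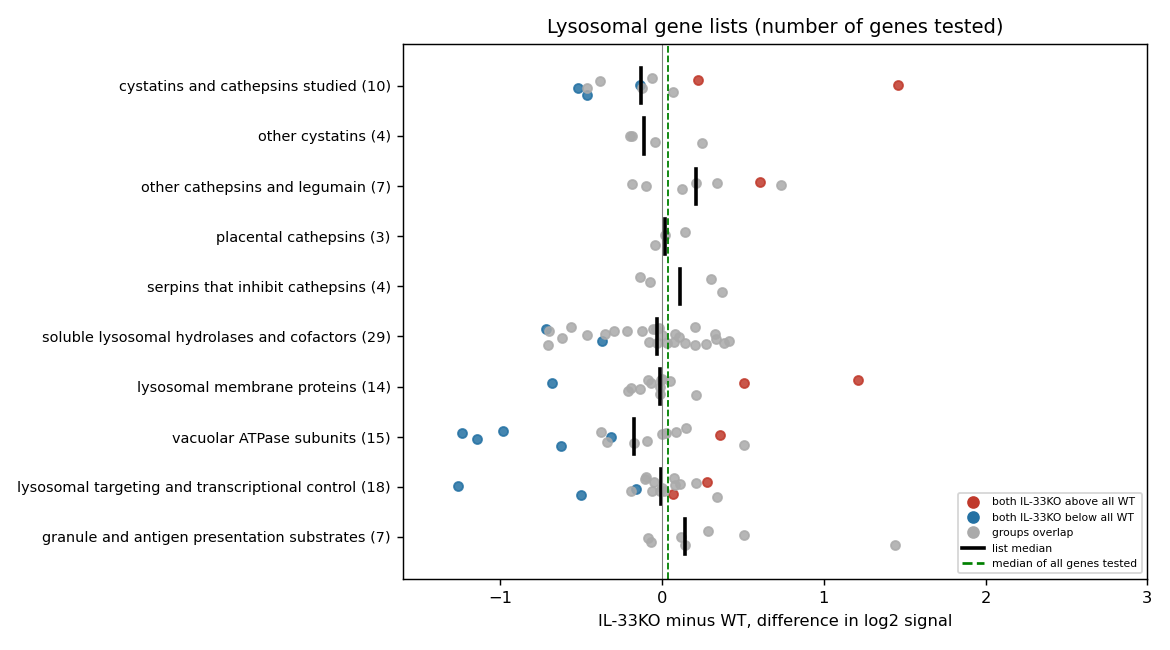
Difference in log2 signal, IL-33KO minus WT (horizontal axis), 1 point per gene tested, for the 10 cystatins and cathepsins and for related gene lists. Red points have both knockout arrays above all WT arrays, blue points both below, and grey points overlap; black bars are list medians and the dashed line is the median of all genes tested, 0.04. Cstb, at 1.46, is the rightmost point of the top row, and the list medians lie between -0.17 and 0.21.

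Lysosomal genes share a regulator family, the MiT factors TFEB, TFE3 and MITF, which bind promoter elements built around the letters CACGTG. Of the 10 genes, 6 had an entry in the RefSeq promoter table (GRCm38.p6), namely Cst3, Cst7, Ctsd, Ctsl, Ctss and Ctsz. In the 250 bases before the start, CACGTG, which reads the same on both strands, occurred in the Ctsd and Ctsl entries and in none of the other 4. Over all 32851 promoter entries 6.02% held it at least once and 0.429% at least 2 times. The Ctsd entry held it 2 times, 245 and 98 bases before the start, each time as the longer CACGTGAC, and that form or its reverse complement GTCACGTG was in 1.85% of all entries. The Ctsd sequence is shown because it carries both matches and because Ctsd is the cathepsin farthest below WT in units of its standard error. It lies on the minus strand at chr7:142387828-142388077 of GRCm38.p6 and is printed 5′ to 3′ along the gene, with the matches in capitals.
Ctsd promoter: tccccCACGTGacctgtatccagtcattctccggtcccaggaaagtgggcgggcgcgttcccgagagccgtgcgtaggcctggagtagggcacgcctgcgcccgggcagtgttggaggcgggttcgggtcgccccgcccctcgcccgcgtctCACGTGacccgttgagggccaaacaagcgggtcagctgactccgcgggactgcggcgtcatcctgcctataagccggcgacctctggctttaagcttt

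Among the hydrolase, membrane protein and vacuolar ATPase lists together, 12 of 61 promoter entries (19.7%) held CACGTG. A match is a string of letters and not a shown binding site. Both genes with a match in the set differed in opposite directions, Ctsd by -0.46 and Ctsl by 0.22. Of the regulators, Tfeb had 4.50 and 4.37 in IL-33KO and 4.50 on all WT arrays, and Tfe3 differed by -0.01. Mitf read 5.77 and 5.74 in IL-33KO and 5.91 on all 3 WT arrays, a difference of -0.16 (SE 0.039) with an adjusted p of 0.514 by limma, with an SD of 0 among its WT values. Of 18 targeting and control genes 8 were above 0, 9 below and 1 at 0. Rragc, a GTPase of the nutrient sensor on the lysosome, read 4.81 and 3.82 in IL-33KO and 5.82, 5.26 and 5.65 in WT. Gnptg, of the enzyme that adds the mannose 6-phosphate tag to lysosomal proteins, was lower in both knockout arrays like Rragc. It read 7.29 and 6.91 in IL-33KO and 7.39, 7.84 and 7.58 in WT. Gnptab, of the same enzyme, was higher in both, at 5.80 and 6.23 in IL-33KO and 5.68, 5.74 and 5.77 in WT. In this list the groups did not overlap for 2 higher and 3 lower genes, where the shares over all genes were 11.6% and 6.32%.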

How the data were processed

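Total RNA of lung ILC2s was labelled with biotin and hybridised to arrays, per the labels' protocols. The deposited values are log2 signals per probe set; the submitters' processing notes name RMA and Affymetrix Expression Console, without versions, settings or genome build. Because RMA usually makes the distributions of all arrays alike, a difference common to all transcripts would be lost. The deposited distributions were close but not equal. Over all probe sets the medians ran from 4.29 to 4.33, highest on IL-33KO replicate 2. The upper quartile was 5.57 on that array and 5.64 to 5.73 on the others. Precision is limited by there being only 5 arrays.

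Of 41345 probe sets, 23521 had 1 gene symbol, 1814 several and 16010 none; symbols were updated through gene identifiers (23328 found) with the RefSeq table of GRCm38.p6. Genes in the lowest 25% of mean signal stayed out of the test. The comparison of genotypes used limma 3.58.1 (R 4.3.3; lmFit, eBayes, Benjamini-Hochberg over all 16635 genes), without a block; the fit was tested on simulated data. The 10 genes and the lists were chosen with earlier results of these data known. Named genes were those 10 and, per list, up to 3 with the smallest unadjusted p and a mean above the median gene. Bpifa1, Scgb1a1, Scgb3a2, Epcam, Cdh5, Cldn5, Gzma, Nkg7, Lyz2, Chil3, Retnlg, Lamp1, Atp6v1a, Gnptab, Tfeb and Tfe3 were named after their values were seen. Alternatives covered the filter, probe sets, scaling, variance model, array weights, a replicate block, distinct values and leaving out each array. Counts of genes without overlap were added as a followed result after seeing the data.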

Additional observations from a re-analysis of the deposited data

Results flagged for a closer look

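The dimmer of the 2 Cst3 probe sets, which enters no comparison, had a mean of 5.48 ± 0.29 (SD, n = 2) in IL-33KO and 4.51 ± 0.34 (SD, n = 3) in WT, a signal 1.96-fold higher and above all WT arrays in both knockout arrays. The brighter probe set of the same gene differed by 0.07 with overlap of the groups.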

How the results depend on the processing

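With limma 0 of 16635 genes passed under the reported settings, with 1271 at an unadjusted p below 0.05. The 8 alternatives that kept all arrays tested 10756 to 22180 genes, and 0 passed in each. Leaving out 1 array gave 0 to 1072 genes: 0 without any single WT array, 389 without IL-33KO replicate 2 and 1072 without IL-33KO replicate 1, where the array with the high Xist signal is the only knockout array; a lone array is there assumed to vary like the WT arrays. None of the 10 genes passed in any of the 13 alternatives that tested it; Ctsz was not tested among genes with at least 4 distinct values. With the replicate number as a block, which the labels do not tie to a litter or batch, 0 genes and 0 of the 10 passed and Cstb differed by 1.49; deviations of same-numbered arrays correlated at r = -0.05 for number 1 and 0.14 for number 2 across genes. The difference of Cstb ran from 1.38 to 1.51 and its adjusted p from 0.0580 to 0.793. As single arrays were left out, Ctsb ran from -0.87 to -0.17, Ctsd from -0.64 to -0.29, Ctsh from -0.22 to -0.049, Ctsl from 0.089 to 0.36, Ctss from -0.82 to -0.11 and Ctsw from -0.28 to -0.0018. Cst3 was 0.52 with both probe sets averaged, turned to -0.011 under quantile normalization and ran from -0.18 to 0.31 without single arrays; likewise Cst7 ran from -0.80 to 0.028, Ctsz from -0.20 to 0.11, Serpinb1a from -0.18 to 0.78 and H2-DMa from -0.21 to 0.46. Among the 10, those without overlap numbered 5 to 8 when 1 array was left out, 8 without IL-33KO replicate 1, and 5 or 6 otherwise. Leaving out an array cannot make groups overlap that lay apart, so those counts could only stay at 5 or rise. Over all genes tested, 54% lay outside the WT range with IL-33KO replicate 2 as the only knockout array, and 47.8% with replicate 1. The causes were not tested.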

Other observations

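Genes whose products cathepsins activate or degrade, and serpins that inhibit cathepsins from the cytosol, were also read. Of 7 granule and antigen presentation genes tested, 5 were above and 2 below 0 in difference and none passed with limma. H2-Ab1, a class II beta chain, had 5.60 and 6.38 in IL-33KO and 5.11, 5.59 and 5.75 in WT, with overlap of the groups. Prf1, encoding perforin, read 5.21 and 5.10 in IL-33KO and 5.10, 4.92 and 5.10 in WT, and H2-DMa 5.83 and 5.96 in IL-33KO and 5.05, 6.37 and 5.83 in WT, both with overlap. Of 4 serpins tested, 2 were above and 2 below 0. Serpinb1a, an inhibitor of neutrophil serine proteases and cathepsin G, had 7.13 and 8.09 in IL-33KO and 7.37, 7.30 and 7.26 in WT, with the knockout arrays on opposite sides of the WT range. Serpinb9, an inhibitor of granzyme B, was 0.047 and 0.69 above the WT mean on IL-33KO replicates 1 and 2, and Serpinb6a read 5.03 on IL-33KO replicate 2 and 5.30 on the other 4 arrays.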
